A study of Mus musculus with 10 samples.

Results

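The members of a set of chemokines and inflammatory cytokines were followed, 10 of the 30406 genes that every library shared: 4 CC chemokines (Ccl2, Ccl3, Ccl4 and Ccl12), the CXC chemokine Cxcl10, the CX3C chemokine Cx3cl1 with its receptor Cx3cr1, and the cytokines Tnf, Il1a and Il1b. They were taken by gene symbol from the deposited gene lists, and all 10 were found. Cells of the medial prefrontal cortex were sequenced singly from C57BL/6N males over 2 months old, the dominant (Rank1) and the subordinate (Rank4) animals of a hierarchy ranked by tube test, a contest in which the mouse that is pushed back out of a tube ranks lower. Both groups came from the same strain and sex, and the labels name no genetic change or drug treatment in either. The tissue was collected 1 day after the last test. Tissue of 2 to 3 mice was pooled for each library and digested with papain for 60 min at 37 °C. Each rank had 5 libraries, numbered 1 to 5, and the p-values below measure the spread between such pooled libraries, not between mice.

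Chemokines are small secreted proteins that guide the movement of immune cells through G protein-coupled receptors. In the brain the CC chemokines, Cxcl10, Tnf and the interleukin 1 genes are produced mainly by microglia and by macrophages of the vessels and meninges once these cells are stimulated. Stimulation releases NF-kappaB, a transcription factor held in the cytoplasm by inhibitors such as the product of Nfkbia. The pair Cx3cl1 and Cx3cr1 works the other way: neurons carry the ligand, which is anchored in the membrane and can be shed by proteases, and resting microglia carry the receptor. Microglia also switch on early-response and cytokine genes when tissue is taken apart with warm enzymes.

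The 10 libraries held 64937 deposited cell barcodes and between 4442750 and 29278466 unique molecular identifiers (UMIs, each standing for 1 captured RNA molecule). After filtering, 45927 cells were kept and fell into 24 clusters. Marker genes gave 11 classes of cells, and 5 clusters with 2465 cells stayed unnamed. The microglia-like class held 3551 cells, and all 10 of its marker genes were detected in it. The class of perivascular macrophage-like cells held 112 cells. The classes are called microglia, macrophages, neurons and so on below.

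The libraries of replicates 2 and 3 stood apart from those of replicates 1, 4 and 5 in both ranks. The first principal component of the microglial libraries, computed over 5374 genes with the 10 members left out, took 65.7% of the variance. Its scores lay between 46.7 and 63.5 in the 4 libraries of replicates 2 and 3, and between -62.9 and -13.9 in the other 6. Per the file headers, replicates 1 to 3 were written by software version 3.1.0 and replicates 4 and 5 by version 4.0.0, so this division does not follow the header version. Libraries of the same header version shared between 6 and 104 barcodes, which was 0.203% to 1.70% of the smaller library, and libraries of different versions shared 0 to 4. The tests of rank, header version and replicate number in microglia and the comparison of microglia with macrophages are therefore given with and without them, and levels pooled over libraries are weighted towards the libraries with most UMIs. The labels do not say what a replicate number stands for.

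The 4 CC chemokine genes lie on mouse chromosome 11 (GRCm38, GENCODE M21 annotation). Ccl2 spans 82035571 to 82037453 and Ccl12 spans 82101845 to 82103400, both on the plus strand. Ccl3 spans 83647844 to 83649355 on the minus strand, and Ccl4 spans 83662584 to 83664683 on the plus strand. Il1a (129299610 to 129309972) and Il1b (129364570 to 129371139) are neighbours on the minus strand of chromosome 2. Tnf lies on chromosome 17 (35199381 to 35202007), Cxcl10 on chromosome 5 (92346638 to 92348889) and Cx3cr1 on chromosome 9 (119901616 to 120069879), all on the minus strand. Cx3cl1 lies on the plus strand of chromosome 8 (94772009 to 94782427). Il1b overlaps the antisense gene Il1bos, Il1a overlaps Gm14023, Cxcl10 overlaps Art3, Ccl2 overlaps Gm17268, and the longest gene model of Cx3cr1 spans several other genes. Whether the counting used the strand is not given in the sources used here, so reads of these 5 genes and of their overlapping partners may not have been told apart.

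Promoters are shown for 4 members because their genes follow the same libraries in microglia below (Cxcl10, Tnf and Ccl3) or a different order (Il1b). Each is the stretch of 200 bases before the RefSeq start of the gene (GRCm38.p6), read 5′ to 3′ on the gene's own minus strand. Capitals mark matches to the NF-kappaB (kappaB) consensus or to the TATA box TATAAA. The windows are chr5:92348890-92349089 for Cxcl10, chr17:35202008-35202207 for Tnf, chr2:129371140-129371339 for Il1b and chr11:83649379-83649578 for Ccl3.
Cxcl10: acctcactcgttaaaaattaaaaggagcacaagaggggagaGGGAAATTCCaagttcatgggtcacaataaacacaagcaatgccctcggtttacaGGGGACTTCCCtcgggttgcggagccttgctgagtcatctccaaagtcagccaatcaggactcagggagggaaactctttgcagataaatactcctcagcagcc
Tnf: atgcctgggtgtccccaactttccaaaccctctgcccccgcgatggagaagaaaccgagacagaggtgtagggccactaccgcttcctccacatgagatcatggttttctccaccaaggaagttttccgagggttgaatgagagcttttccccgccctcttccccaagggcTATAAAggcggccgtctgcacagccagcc
Il1b: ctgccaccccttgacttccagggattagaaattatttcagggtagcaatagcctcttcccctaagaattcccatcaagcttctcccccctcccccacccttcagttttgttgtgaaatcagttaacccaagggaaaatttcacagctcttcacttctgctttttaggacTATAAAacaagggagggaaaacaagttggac
Ccl3: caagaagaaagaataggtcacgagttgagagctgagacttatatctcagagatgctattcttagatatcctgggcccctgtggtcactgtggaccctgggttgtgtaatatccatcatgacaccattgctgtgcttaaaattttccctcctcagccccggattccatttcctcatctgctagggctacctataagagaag
The Cxcl10 promoter held 3 kappaB matches, at positions -159, -104 and -103, of which the last 2 overlap. TATAAA stood at -29 in Tnf and at -31 in Il1b, while the Ccl3 window held a match to neither motif. Promoters of 8 of the 10 members were in the table used, which reaches from 250 bases before to 50 after the start. A kappaB match on either strand was in 1 of these 8, against 8.46% of 32851 promoters. TATAAA was in 5 of the 8, against 13.6%, and the AP-1 motif TGANTCA was in 2 (Il1a and Cxcl10), against 7.81%. A match is a description of the letters only, and a window without one says nothing about the factor.

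Microglia held most of the UMIs of the CC chemokines, Tnf and Il1a, and excitatory neurons most of those of Cx3cl1. Of 11484 Ccl3 UMIs in kept cells, 9660 were in microglia, and of 19601 Ccl4 UMIs, 16490 were. Levels below are counts per 1000000 UMIs (CPM) of a class summed within a library, or over all libraries where said to be pooled. Pooled over the libraries, Ccl3 stood at 1685 CPM in microglia and 1236 CPM in macrophages. Ccl2, the ligand that draws monocytes, stood at 155 CPM in pooled microglia and 3008 CPM in pooled macrophages. Ccl12, a mouse gene whose product acts on the same receptor, had 202 CPM in microglia and 1088 CPM in macrophages. Cx3cr1 had 1692 CPM in microglia and 142 CPM in macrophages.

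The difference between microglia and macrophages was tested within libraries. Both classes had at least 5 cells in 8 libraries, and the log2 difference of CPM + 1 was taken in each. With a count of 0 taken as 0, microglia were higher in 8 of 8 libraries for 6 members. The mean difference was 2.76 (SD 2.95) for Ccl3, 3.98 (SD 3.03) for Ccl4 and 5.04 (SD 3.18) for Cxcl10, a ligand of the receptor Cxcr3. It was 4.66 (SD 3.01) for Cx3cr1, 2.60 (SD 2.38) for Tnf and 4.28 (SD 2.34) for Il1a. The exact two-sided sign-flip test gave each of these 6 the smallest p it allows, 0.00781, or 0.0123 after Benjamini-Hochberg adjustment over 11 comparisons. Ccl2 was higher in microglia in 2 of 8 libraries (mean -1.13, SD 3.81, exact p = 0.398), and Ccl12 in 3 of 8 (mean 0.42, SD 3.11, exact p = 0.688). Il1b was higher in 3 of 8 (0.98, SD 3.33, exact p = 0.430), and Cx3cl1 in 6 of 8 (2.49, SD 3.06, exact p = 0.0938). Macrophages had no UMI of Cxcl10 in 5 of the 8 libraries, of Il1a in 4, and of Ccl3, Ccl4, Cx3cr1 and Tnf in 2 each, and many of these zeros, though none of Cx3cr1, allow more than the microglial level. With each such 0 set at 3 counts, the most it allows, the difference held for Cx3cr1 (2.64, SD 1.20, 8 of 8, exact adjusted p = 0.0215) and Ccl4 (1.86, SD 1.44, 7 of 8, exact adjusted p = 0.0344). It did not hold for Ccl3 (0.63, 6 of 8, exact adjusted p = 0.279), Tnf (0.47, 6 of 8, 0.563), Il1a (0.40, 5 of 8, 0.722) or Cxcl10 (0.086, 5 of 8, 0.930). Set the same way, with 2 zeros each for Ccl2 and Ccl12, 3 for Il1b and 4 for Cx3cl1, the other 4 members were lower in microglia. Ccl2 had -3.25 (SD 0.654, higher in microglia in 0 of 8, exact adjusted p = 0.0215) and Il1b -1.95 (SD 1.06, 0 of 8, exact adjusted p = 0.0215). Ccl12 had -1.71 (SD 1.41, 1 of 8, exact adjusted p = 0.043) and Cx3cl1 -1.38 (SD 1.65, 2 of 8, exact adjusted p = 0.0614). The sign for Ccl12, Il1b and Cx3cl1 and the calls for Ccl2, Ccl12 and Il1b thus depend on where these zeros are placed. The libraries of replicates 2 and 3 alone, or of 1, 4 and 5 alone, are 4 each and cannot reach a p of 0.05.

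**Figure D1:**
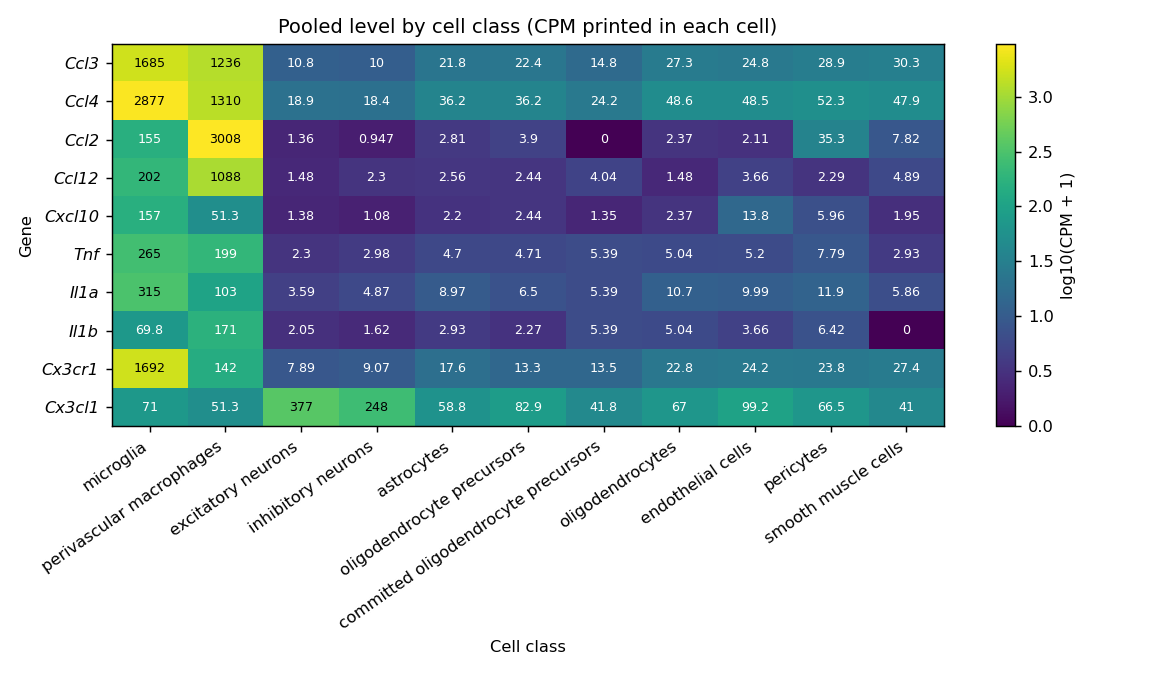
Pooled level of the 10 members (rows) in the 11 classes of cells (columns), with the CPM printed in each cell and log10(CPM + 1) as colour. Cx3cr1 has 1692 CPM in microglia and 142 CPM in macrophages, Ccl2 has 155 and 3008 CPM there, and Cx3cl1 is highest in excitatory neurons.

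Ccl2 in macrophages was 526, 6056, 6536, 0 and 0 CPM in replicates 1 to 5 of Rank1. In Rank4 it was 145, 6923, 3398, 0 and 569 CPM. The high libraries were again replicates 2 and 3 of both ranks, although they rest on 23, 5, 9 and 27 macrophages. A count of 0 still allows up to 1055 CPM in Rank1 replicate 4, 367 CPM in Rank1 replicate 5 and 354 CPM in Rank4 replicate 4, taking 3 counts as the limit, which covers counting error only.

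Averaged over libraries with each weighted alike, the order of the classes below microglia and macrophages was not resolved for most members. Ccl3 averaged 2940 ± 3473 CPM in microglia (SD, n = 10) and 1341 ± 1534 CPM in macrophages (n = 8). The next classes were pericytes at 47.3 ± 52.6 CPM, endothelial cells at 32.3 ± 31.6 CPM, oligodendrocyte precursors at 32 ± 35.2 CPM and astrocytes at 29.1 ± 28.5 CPM. Pericytes were above endothelial cells in 8 of 10 libraries, and endothelial cells above oligodendrocyte precursors in 4 of 10, so these neighbours did not differ beyond their spread. Cx3cr1 averaged 1472 ± 763 CPM in microglia and 166 ± 199 CPM in macrophages, and at most 19.0 CPM in any other class. Cx3cl1 followed a separate order. After excitatory neurons, inhibitory neurons were above endothelial cells in 9 of 10 libraries, and endothelial cells (98.7 ± 24.6 CPM) above oligodendrocyte precursors (71.8 ± 29.8 CPM) in 6 of 10.

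Within microglia the level of the inflammatory members followed the replicate number in both ranks. Ccl3, whose product attracts monocytes and T cells, measured 62.7, 6595, 8284, 414 and 301 CPM in replicates 1 to 5 of Rank1. In Rank4 it measured 70.8, 6625, 6169, 90.7 and 788 CPM. The 4 libraries of replicates 2 and 3 were above all of the other 6, and the ranks overlapped fully. Ccl4, a close relative of Ccl3, measured 114, 10929, 13624, 1260 and 521 CPM in Rank1. Its Rank4 values were 225, 10275, 10367, 300 and 1510 CPM, with the same 4 libraries on top.

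Ccl2 measured 44.5, 390, 597, 91.3 and 42.7 CPM in Rank1 microglia. The Rank4 values were 33.4, 641, 561, 20.9 and 52.3 CPM, so replicates 2 and 3 were again the highest. Ccl12 measured 71.8, 585, 653, 79.2 and 44.7 CPM in Rank1, and 144, 759, 448, 27.9 and 107 CPM in Rank4. Here too no library of replicates 1, 4 or 5 reached the lowest of replicates 2 and 3.

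Cxcl10, a gene induced by interferon and NF-kappaB, measured 14.8, 683, 505, 244 and 114 CPM in Rank1 microglia. In Rank4 it measured 22.8, 641, 401, 14.0 and 117 CPM. Replicates 2 and 3 were highest, with Rank1 replicate 4 the nearest below. Tnf, a cytokine made as a membrane protein and shed, measured 52.4, 763, 967, 268 and 142 CPM in Rank1, and 42.1, 839, 833, 41.9 and 197 CPM in Rank4. The order of the libraries was like that of Cxcl10, and the lowest were replicate 1 of both ranks and Rank4 replicate 4.

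Il1a, an interleukin 1 that is active without inflammasome cleavage, measured 49.0, 809, 1002, 91.3 and 48.8 CPM in Rank1 microglia. In Rank4 it measured 62.6, 956, 1068, 27.9 and 323 CPM, and Rank4 replicate 5 was the highest outside replicates 2 and 3. Il1b, whose precursor is cut by caspase 1, differed in its order. It measured 12.5, 97.6, 105, 54.8 and 38.6 CPM in Rank1, and 18.1, 90.8, 60.1, 34.9 and 208 CPM in Rank4. The highest of all was Rank4 replicate 5, above each library of replicates 2 and 3.

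Cx3cr1 ran in the opposite direction. It measured 1678, 660, 706, 2649 and 1908 CPM in Rank1 microglia, and 2086, 593, 592, 1779 and 2064 CPM in Rank4. The 4 libraries of replicates 2 and 3 were below all others, with no overlap. Cx3cl1 in microglia was low, with 62.7, 45.9, 26.1, 36.5 and 124 CPM in Rank1 and 86.0, 16.0, 28.6, 140 and 75.2 CPM in Rank4. Its values in replicates 2 and 3 overlapped with those of the other libraries.

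Thus 7 of the 10 members lay higher in all 4 libraries of replicates 2 and 3 than in any of the other 6, where 10.4% of the 5384 genes tested in microglia did so. Cx3cr1 lay lower in all 4, as did 27.9% of the genes. Replicates 2 and 3 were singled out from these data, so this is a description without a test.

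**Figure D2:**
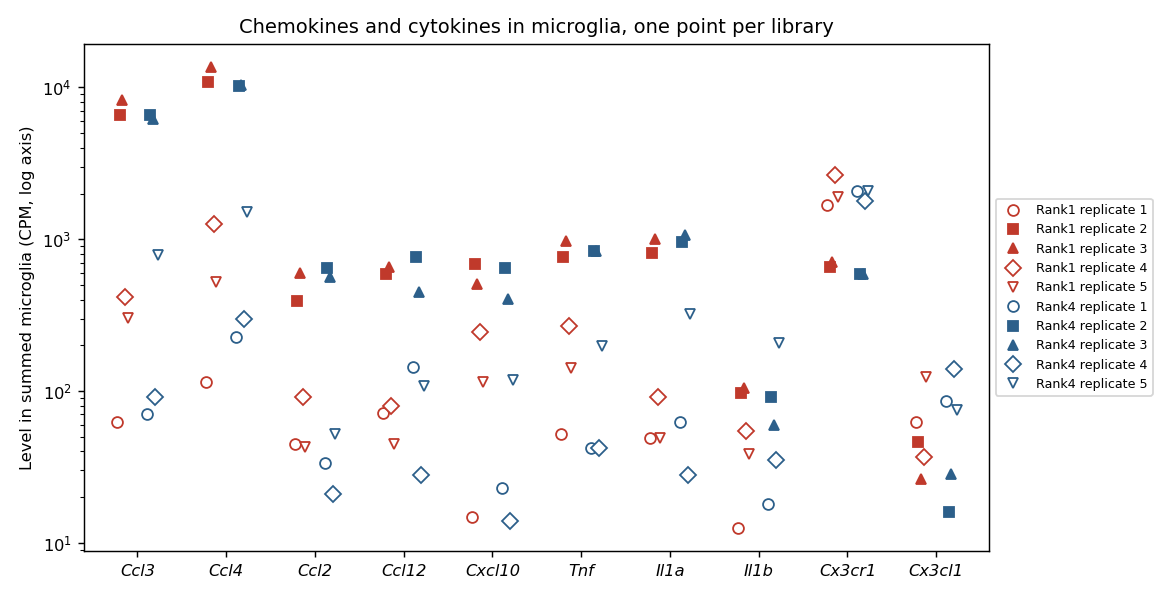
Level of each member in the microglia of every library (y axis, CPM on a log scale; x axis, genes; colours, ranks; marker shapes, replicate numbers, filled for replicates 2 and 3). In replicates 2 and 3 of both ranks Ccl3 lies between 6169 and 8284, against at most 788 elsewhere, and Cx3cr1 is lowest there.

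A term for replicate number, fitted over all genes with edgeR's quasi-likelihood test, called 9 of the 10 members in microglia at an adjusted p under 0.05. The term was added after these libraries were seen to stand apart, so its p-values describe the division and are no independent test of it. The share called was high in general, 54.2% of 5384 genes. The adjusted p (edgeR) was 2.7e-08 for Ccl2, 4.91e-08 for Ccl3, 5.48e-07 for Ccl4 and 7.44e-07 for Ccl12. It was 4.5e-07 for Tnf, 1.13e-06 for Il1a and for Cxcl10, 0.00131 for Cx3cr1 and 0.00139 for Il1b, while Cx3cl1 had 0.0911. With replicates 1, 4 and 5 only, edgeR called 666 of 8541 genes (7.8%), and 3 members were among them: Il1b (adjusted p = 0.00914), Ccl3 (0.0209) and Cxcl10 (0.0333).

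The header version gave no stable picture for these genes. All libraries of a replicate number carry the same header version, so this comparison sets 2 numbers against 3, and without replicates 2 and 3 it sets 2 against 1. The fit counts same-numbered libraries as independent although they deviated together, so its p-values are too small and its counts of genes too high for a comparison of versions. Replicates 4 and 5 against 1 to 3 differed for 34% of the genes in microglia (17.8% lower and 16.2% higher in replicates 4 and 5), and for 5 members, all lower. The log2 difference was -3.96 for Ccl3 (edgeR adjusted p = 0.0371), -3.50 for Ccl4 (0.043), -3.28 for Ccl2 (0.0193), -3.11 for Ccl12 (0.01) and -2.89 for Il1a (0.0429). Without replicates 2 and 3, edgeR called 16.1% of 8541 genes, and 5 members were higher in replicates 4 and 5 than in replicate 1. These were Ccl3 at 2.35 (adjusted p = 0.0033), Il1b at 2.33 (0.00162), Cxcl10 at 2.27 (0.00206), Ccl4 at 2.19 (0.00863) and Tnf at 1.55 (0.0103). The share of genes called higher there was 7.95%. The direction for Ccl3, Ccl4, Cxcl10 and Tnf thus turned with the libraries used. Without Rank1 replicate 5 edgeR called 638 genes and 1 member for the header version, and with only cells of at least 1000 genes it called 0 genes and 0 members.

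Other measures of the microglia were compared between the same sets of libraries, and some were separate while others overlapped. The summed level of 12 early-response genes, which are also induced by tissue dissociation, was 5769 to 9254 CPM in replicates 2 and 3 and 1312 to 5960 CPM in the other libraries. Junb made up much of this sum, and without it the ranges were 2807 to 4094 CPM and 984 to 4717 CPM, with Rank4 replicates 1 and 5 the highest of all. Of the 12 genes 3 lay higher in all 4 libraries of replicates 2 and 3 than in any other, as did 10.4% of all genes tested, and 7 had their highest library outside them. Fos, for example, measured 57.4 to 192 CPM in replicates 2 and 3 and 85.3 to 771 CPM elsewhere. The summed level of the excitatory-neuron markers in microglia was 105 to 166 CPM against 655 to 2030 CPM. That of the oligodendrocyte markers was 40.2 to 120 CPM against 219 to 1060 CPM, without overlap either, and that of the astrocyte markers 274 to 729 CPM (median 435) against 396 to 1375 CPM (median 979). The microglial markers summed to 39405 to 52700 CPM against 21652 to 38028 CPM. The median mitochondrial share, 2.84% to 3.88%, lay inside the range of the other libraries, 1.90% to 9.28%, and so did the median UMIs per cell, 1291 to 1540 against 792 to 2787. Macrophage markers in microglia summed to 3.01 to 11.5 CPM against 0 to 20.9 CPM, monocyte markers to 0 to 11.5 CPM against 12.2 to 40.7 CPM and neutrophil markers to 126 to 160 CPM against 96.9 to 126 CPM. Nearly all of the neutrophil sum was Csf3r, with S100a8 and S100a9 at 0 in the 4 libraries of replicates 2 and 3. The part of these measures in the levels of the members was not tested.

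In other classes replicate number was called as widely. In astrocytes edgeR called 6 of 6 members tested (64.6% of all genes), in excitatory neurons 6 of 7 (67.6%) and in endothelial cells 4 of 5 (52.6%). In inhibitory neurons it called 1 of 2 (47.1%), in oligodendrocyte precursors 2 of 2 (53.5%), in oligodendrocytes 1 of 1 (55.7%) and in pericytes 1 of 1 (52.6%).

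The share of microglia with at least 1 UMI of a member was compared after each cell was thinned to 1000 UMIs, which left 2480 of 3551 cells. Ccl3 was found in 3.58%, 76.4%, 79.5%, 13.7% and 9.52% of the cells in Rank1 replicates 1 to 5. In Rank4 the shares were 3.14%, 75.0%, 80.3%, 11.1% and 35.9%. Most microglia of replicates 2 and 3 carried the transcript, and few cells did so in replicate 1. Excitatory neurons, which should lack Ccl3, had it in 1.31% of cells thinned alike. By replicate number, both ranks pooled, their share was 0.218%, 3.46%, 3.60%, 0.939% and 1.15% in replicates 1 to 5. The microglia of every library had a higher share than the neurons of their replicate number. Unthinned, the shares were 32.1% of all microglia and 3.47% of excitatory neurons.

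Cx3cr1 was found in 70.3%, 42.5%, 52.3%, 97.3% and 85.7% of thinned microglia in Rank1. In Rank4 it was found in 83.6%, 40.5%, 44.9%, 51.9% and 82.5%. Replicates 2 and 3 were low in both ranks, and Rank4 replicate 4, with 27 such cells, was near them.

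Cells with several of the inflammatory transcripts were common in the same libraries. At least 3 of the 8 chemokine and cytokine genes other than Cx3cl1 and Cx3cr1 were present in 62.3% and 66.7% of thinned microglia in Rank1 replicates 2 and 3, and in 64.7% and 66.4% in Rank4. In the other libraries this share was 1.02%, 9.59% and 2.38% in Rank1 and 1.29%, 3.70% and 26.3% in Rank4. Among cells with Ccl3, Ccl4 was also found in 35.5%, 92.3%, 91.5%, 69.2% and 77.0% in replicates 1 to 5, both ranks pooled. Among cells without Ccl3 it was found in 4.66%, 42.6%, 42.9%, 20.7% and 25.8%. Ccl4 was thus found more often in cells with Ccl3 in 5 of 5 replicate numbers, as were Ccl2, Ccl12 and Il1b. Tnf, Il1a and Cxcl10 were so in 4 of 5, the exceptions being Tnf in replicate 1 (0% against 4.21%) and, with 13 cells that carried Ccl3, Il1a (7.69% against 9.20%) and Cxcl10 (0% against 4.6%) in replicate 4. The counts of 5 of 5 rest on few cells too. Replicate 1 had 31 cells with Ccl3, and Ccl2, Ccl12 and Il1b were each in 6.45% of them. Ccl12 was in 4.66% of the cells without Ccl3 there, and in replicate 4 it was in 7.69% against 1.15%.

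**Figure D3:**
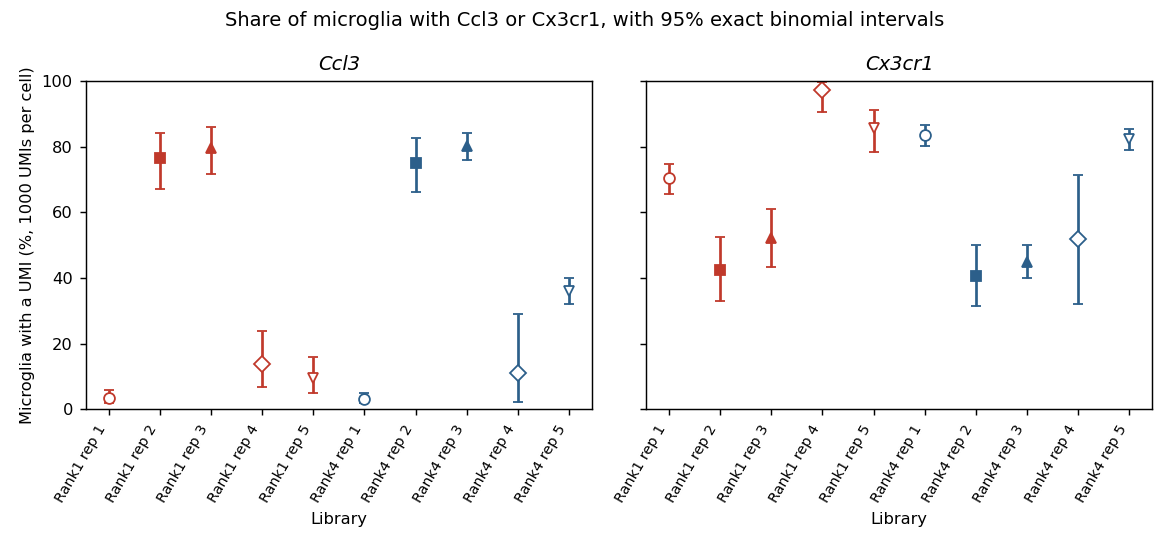
Share of microglia with at least 1 UMI of Ccl3 (left) or Cx3cr1 (right) in every library, after thinning each cell to 1000 UMIs (y axis, percent; x axis, libraries; bars, exact 95% binomial intervals). Ccl3 is found in 75.0% to 80.3% of cells in replicates 2 and 3 and in 3.14% to 35.9% elsewhere.

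At a finer resolution microglia fell into 3 clusters that differed in the members. The cluster of 951 cells led by Gdf15, Bcl2a1b, Cd83, Cd14 and Plaur had Ccl3 at 5826 CPM and in 76.8% of its cells. The clusters of 1280 and 1369 cells had Ccl3 at 177 and 353 CPM. The libraries differed in their makeup: the first cluster held 61.5% to 69.8% of microglia in replicates 2 and 3 and 2.01% to 31.6% elsewhere, and the second 0.735% to 3.50% against 25.1% to 68.6%. The third, with 28.1% to 37.5% against 18.8% to 60.6%, overlapped between these libraries, and in it Ccl3 measured 1221 to 2093 CPM in replicates 2 and 3 and 8.39 to 496 CPM in the other 6 libraries. In the first cluster Ccl3 measured 8592 to 11167 CPM in replicates 2 and 3, against 886, 1048 and 1337 CPM in the 3 other libraries with at least 20 of its cells. Replicates 2 and 3 were thus higher within both clusters too. The members were left out of the clustering, but genes that move with them were not, so these levels are a description.

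The genes most alike to a member across 3551 microglia, each gene centred within its library and compared among 4805 genes, were mostly other members. Pearson's r with Ccl3 was 0.618 for Ccl4, 0.371 for Plaur, the urokinase receptor, and 0.355 for Cd83, a surface protein of activated myeloid cells. Il1a was most alike to Ccl3 (r = 0.343), Tnf to Ccl4 (0.340), Cxcl10 to Ccl4 (0.338) and Il1b to Il1a (0.249). Cx3cr1 had weak likeness to C1qa and Marcks (0.171 each) and to P2ry12 (0.159), of which C1qa encodes a complement chain and P2ry12 a purine receptor of microglia. For Cx3cl1, over 16348 excitatory neurons, the values were 0.203 for Clstn1 and 0.194 for Atp2a2. The cells share libraries and differ in depth, so these values describe likeness only.

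No member was called between the ranks in microglia. Of the 5384 genes tested there, with the header version as a covariate, edgeR called 0 between Rank1 and Rank4 (0%), with 143 at an unadjusted p under 0.05, and DESeq2 called 0. The median log2 difference (Rank1 minus Rank4) was 0.04 over the 10 members and -0.01 over all genes. Cxcl10 had the largest positive value, 0.61 (SE 0.93), and Il1a the largest negative one, -0.60 (SE 0.89). Ccl3 had 0.04 (SE 1.09), Ccl4 0.17 (SE 1.03), Ccl2 0.08 (SE 0.79), Ccl12 -0.10 (SE 0.63) and Tnf 0.33 (SE 0.82). Il1b had -0.43 (SE 0.74), Cx3cr1 0.05 (SE 0.36) and Cx3cl1 -0.12 (SE 0.41). All had an edgeR adjusted p of 1.00, and the standard errors, up to 1.09, were larger than the differences. Standard errors of edgeR differences here and below are the size of the difference divided by the square root of the test's F statistic. They are unreliable for differences near 0.

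With the replicate number as a block the standard errors fell. Ccl3 then had 0.08 (SE 0.33), Ccl4 -0.04 (SE 0.38), Ccl2 0.04 (SE 0.24) and Cxcl10 0.37 (SE 0.31). Tnf had 0.27 (SE 0.27), Il1a -0.54 (SE 0.34), Il1b -0.55 (SE 0.38) and Cx3cr1 0.11 (SE 0.20). The lowest edgeR adjusted p of a member was 0.636, beside 2 called genes of 5384 (0.0371%) and 547 at an unadjusted p under 0.05.

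Rank was also tested with and without the libraries that stood apart. With replicates 1, 4 and 5 only, edgeR called 6 of 8541 genes (0.0702%), none of them a member. Il1b then had -1.45 (SE 0.43), Il1a -1.23 (SE 0.46), Ccl12 -0.82 (SE 0.35) and Ccl3 -0.37 (SE 0.44). With replicates 2 and 3 only, edgeR called 18 of 2929 genes (0.615%), again no member. Il1b then had 0.63 (SE 0.32), Il1a -0.11 (SE 0.18), Ccl12 0.17 (SE 0.19) and Ccl3 0.28 (SE 0.18). The sign for Il1b, Ccl12 and Ccl3 thus differed between the library sets, and whether the difference between sets is larger than its error was not tested.

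**Figure D4:**
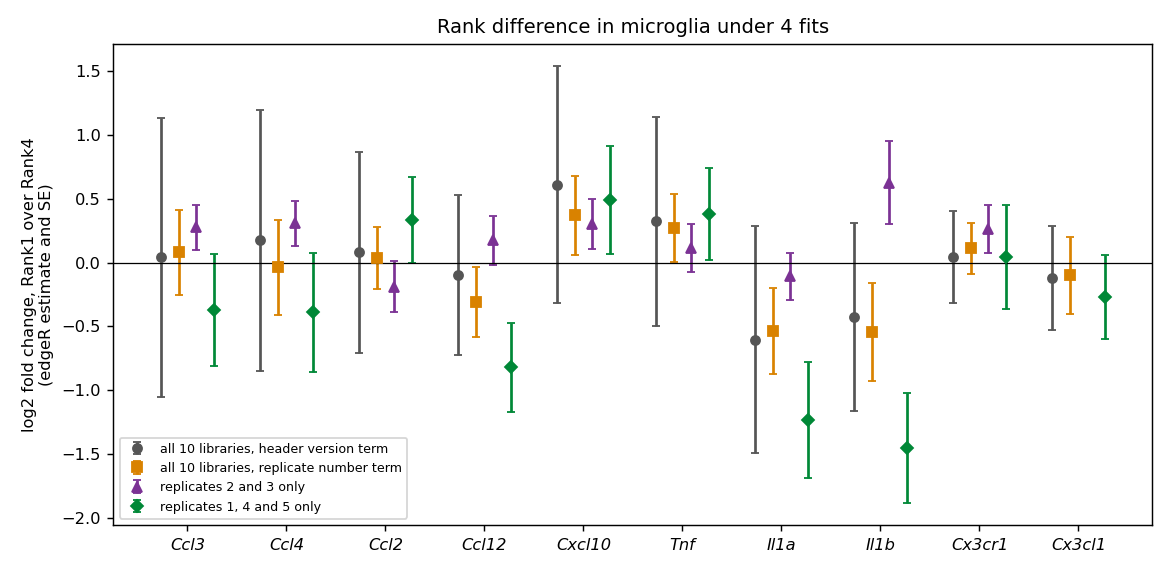
Log2 difference between Rank1 and Rank4 of each member in microglia (y axis; bars, standard errors derived from the F statistic; x axis, genes) under 4 edgeR fits, without and with the replicate number as a block and in the library sets of replicates 2 and 3 and of 1, 4 and 5. The blocked values lie between -0.55 and 0.37.

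No rank difference in the share of thinned microglia with a UMI passed its test. Ccl3 was found in 36.6% ± 38.0 of the cells in Rank1 and 41.1% ± 35.5 in Rank4 (SD, n = 5 each, exact two-sided permutation p = 0.833). Cx3cr1 was found in 69.6% ± 22.7 against 60.7% ± 20.8 (exact permutation p = 0.516), and Il1b in 4.43% ± 2.32 against 6.29% ± 3.88 (exact permutation p = 0.405). The smallest p this test allows is 0.00794, and the lowest adjusted p over the members was 0.979. This test takes no account of replicate number. Within numbers the share was higher in Rank1 for Ccl3 in 3 of 5, for Cx3cr1 in 4 of 5 and for Il1b in 1 of 5, and the exact sign-flip test with the replicate block gave p = 0.875, 0.562 and 0.375. With 5 pairs that test cannot go below 0.0625.

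Outside microglia a member passed the count filter in 7 further classes, which with the 10 tests in microglia gave 34 tests of a member in a class. Over all 9 classes fitted, edgeR called 0 of 61365 gene tests between the ranks (0%), and 0 of the 34, of which 0 had an unadjusted p under 0.05. DESeq2 called 0 of the members' tests. With the replicate block edgeR called 167 gene tests (0.272%), and 1 of the 34, with 9 at an unadjusted p under 0.05. All of the 9 lay outside microglia, where 547 of 5384 genes and 0 of the 10 members had such a p. The share at that p over the genes of all classes is not given here, so the 9 are not read as a result about the members.

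Cx3cl1, the neuronal ligand of Cx3cr1, was highest in excitatory neurons. It measured 265, 327, 394, 400 and 384 CPM there in Rank1 and 391, 335, 315, 388 and 415 CPM in Rank4, a mean of 361 ± 48.0 CPM (SD, n = 10). Inhibitory neurons had 142, 211, 257, 272 and 260 CPM in Rank1 and 263, 99.6, 256, 278 and 267 CPM in Rank4, a mean of 231 ± 61.3 CPM. Excitatory neurons were higher in 10 of 10 libraries, by 0.70 on the log2 scale (SD 0.39, exact sign-flip p = 0.00195, adjusted p = 0.0123). Endothelial cells, which also make the protein, had 82.8, 57.9, 140, 73.3 and 90.6 CPM in Rank1 and 101, 107, 113, 94.0 and 126 CPM in Rank4.

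Between the ranks Cx3cl1 in excitatory neurons differed by -0.07 (SE 0.13), and by -0.08 (SE 0.10) with the block, neither called by edgeR. In astrocytes the blocked value was called. Cx3cl1 measured 41.8, 28.7, 9.97, 34.7 and 61.1 CPM in Rank1 astrocytes and 87.9, 11.6, 27.4, 74.0 and 99.4 CPM in Rank4. Rank4 was the higher in 4 of the 5 replicate numbers, all but replicate 2, while the ranks overlapped. The log2 difference was -0.74 (SE 0.40, edgeR adjusted p = 1.00) without the block and -0.82 (SE 0.18, edgeR adjusted p = 0.0205) with it, where 0.432% of 10660 genes were called in astrocytes.

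Neuronal genes moved with that difference. The 7 excitatory-neuron markers tested in the astrocyte sums had a median blocked log2 difference of -0.58, and edgeR called 2 of them, Nrgn (-0.82, adjusted p = 0.000906) and Slc17a7 (-0.84, adjusted p = 0.00597), with 5 at an unadjusted p under 0.05. Their summed level in astrocytes ranged from 90.8 to 1145 CPM in Rank1 and from 107 to 1498 CPM in Rank4, and none was at 0 in all libraries. Other genes among the 46 called there were the neuronal Syt1 (-0.88), Meg3 (-0.85) and Syn1 (-0.83). Some of the 46 went the other way, among them Gm47423 (1.20) and Gm11713 (0.89), which had the lowest p-values, and Inhba (1.13). The 2 inhibitory-neuron markers tested there had a median of -0.47, with 0 called and 1 at an unadjusted p under 0.05, and their list of 6 summed to 3.32 to 97.7 CPM in Rank1 and 11.4 to 105 CPM in Rank4. Of the 10 microglial markers 0 were called, with a median of 0.04 and sums of 219 to 1010 CPM in Rank1 and 327 to 672 CPM in Rank4. The part of neuronal RNA in the Cx3cl1 difference was not tested.

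**Figure D5:**
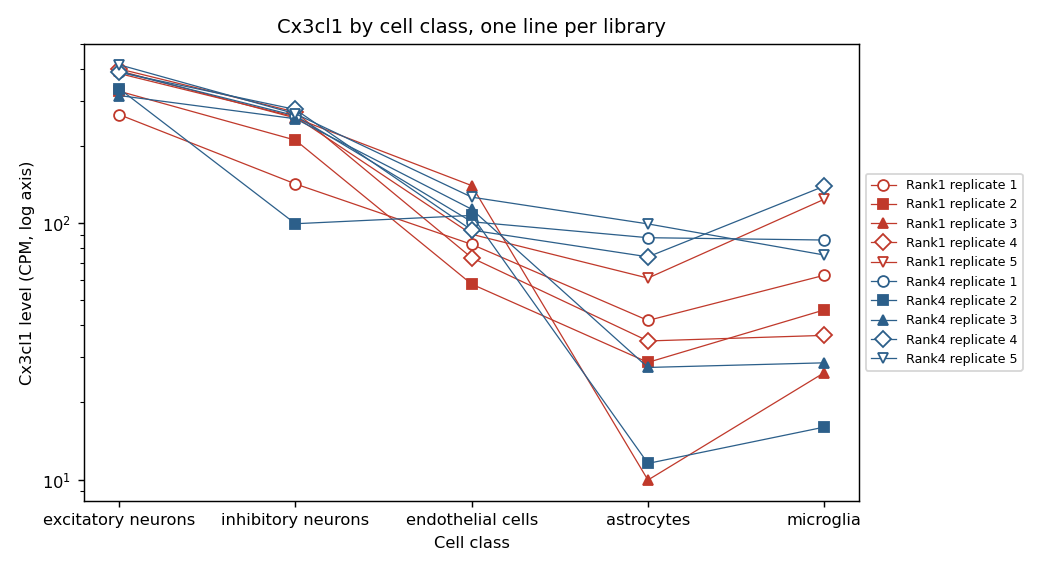
Level of Cx3cl1 (y axis, CPM on a log scale) by class of cells (x axis), with 1 line per library, coloured by rank. Excitatory neurons lie between 265 and 415, above the inhibitory neurons of the same library in 10 of 10 libraries, and the astrocyte values of both ranks overlap.

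Ccl3 in astrocytes was at 0, 39.8, 28.2, 15.7 and 12.9 CPM in Rank1 and 4.90, 79.3, 78.6, 18.3 and 13.1 CPM in Rank4. Replicates 2 and 3 were the highest in both ranks here too, at a far lower level than in microglia. The blocked log2 difference between the ranks was -0.92 (SE 0.26, edgeR adjusted p = 0.0724). With replicates 2 and 3 only it was -1.22 (edgeR adjusted p = 0.0039), where 0.0932% of 7514 genes were called, and with replicates 1, 4 and 5 only it was -0.60 (adjusted p = 0.801). These sets were chosen after the data were seen. In replicates 2 and 3, Ccl3 in excitatory neurons was 22.5 and 22.6 CPM in Rank1 and 26.9 and 57.3 CPM in Rank4. Endothelial cells had 64.8 and 65.0 CPM in Rank1 and 40.7 and 89.2 CPM in Rank4. The part of RNA from other cells in the astrocyte difference was not tested.

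Low counts of the members appeared in every large class, and their proportions were compared with those in microglia. Ccl4 made up 63.1% of the Ccl3 and Ccl4 UMIs in microglia (exact 95% interval 62.5% to 63.6%), 63.5% in excitatory neurons, 62.5% in astrocytes and 64.1% in oligodendrocytes. These pooled shares lie within counting error of each other, while microglial libraries ranged from 60.8% to 76.8%. In excitatory neurons the Ccl3 level was 1.22, 22.5, 22.6, 3.07 and 9.69 CPM in Rank1 and 0.413, 26.9, 57.3, 6.99 and 10.6 CPM in Rank4, with replicates 2 and 3 highest and replicate 1 lowest in both ranks.

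Some members did not keep the microglial proportions in cells of the vessels. Ccl2 made up 8.44% of the Ccl2 and Ccl3 UMIs in microglia (7.91% to 8.98%) and 11.1% in excitatory neurons, but 55.0% in pericytes (46.4% to 63.4%) and 70.9% in macrophages (67.5% to 74.1%). The pooled microglial share follows replicates 2 and 3, which held most of the Ccl3, and by library it ran from 5.59% to 41.5%. In replicates 1, 4 and 5 alone it was 13.2% in microglia (11.5% to 15%), 42.9% in pericytes (24.5% to 62.8%) and 58.6% in macrophages (38.9% to 76.5%). In pericytes, the contractile cells around capillaries, Ccl2 measured 2.92, 42.8, 187, 0 and 15.3 CPM in Rank1 and 1.89, 110, 224, 12.1 and 11 CPM in Rank4, with replicates 2 and 3 highest. Cxcl10 made up 35.8% of the Cxcl10 and Ccl3 UMIs in endothelial cells (30.1% to 41.8%), against 8.52% in microglia (8.0% to 9.07%). By library the microglial share ran from 5.75% to 37.0%. Within replicates 2 and 3 the shares were 20.4% (14.2% to 27.8%) and 6.90% (6.38% to 7.44%), and within replicates 1, 4 and 5 they were 53.5% (44.5% to 62.4%) and 18.0% (16.1% to 20%). In endothelial cells it measured 0, 23.2, 20.5, 59.2 and 11 CPM in Rank1 and 1.61, 3.70, 19.7, 26.2 and 15.9 CPM in Rank4, where the highest library of either rank was replicate 4. Few cells carry these values. The 98 Cxcl10 UMIs of this class lay in 50 of 4196 cells, and the 59.2 CPM rest on 21 UMIs in a library with 151 endothelial cells. The intervals are exact binomial ones and cover counting error only.

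Other genes of the pathway were taken from 6 lists and read in microglia. By rank edgeR called 0 of the 41 list genes tested, with and without the block. Without the block 1 had an unadjusted p under 0.05, and all had an edgeR adjusted p of 1.00. DESeq2 called 0 genes in microglia.

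Of 15 receptor genes 4 were tested, and replicate number was called for 2 of them, against 54.2% of all genes tested in microglia. Ccrl2, a receptor that binds chemerin without signalling, measured 570 to 828 CPM in replicates 2 and 3 and 14.0 to 153 CPM elsewhere. Tnfrsf1a, a Tnf receptor (44.0 to 131 CPM), was called too.

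Of 16 other chemokines 5 were tested and all 5 were called for replicate number (54.2% of all genes were). Ccl9 measured 235 to 528 CPM in replicates 2 and 3 and 48.8 to 117 CPM elsewhere, and Cxcl16, a membrane-bound chemokine, 361 to 449 CPM against 7.0 to 74.3 CPM. Ccl7, a close relative of Ccl2, failed the filter on low counts, with 390 to 588 CPM in replicates 2 and 3 and 0 to 20.9 CPM elsewhere. Of 12 other cytokines 4 were tested and 2 called. Tgfb1, which keeps microglia in their resting state, was not called and spanned 174 to 451 CPM over all libraries. Osm, a cytokine of the interleukin 6 family, failed the filter, with 148 to 182 CPM in replicates 2 and 3 and 0 to 13.5 CPM elsewhere, and Il18, another substrate of caspase 1, was not called (23 to 76.8 CPM).

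Of 5 genes of cytokine processing 4 were tested and 3 called for replicate number, against 54.2% of all genes. Nlrp3, the sensor of the inflammasome that activates caspase 1, measured 31.9 and 31.6 CPM in replicate 1 of Rank1 and Rank4 and 335 CPM in Rank4 replicate 5, its highest value. That library was also the highest in Il1b. Pycard, the adaptor of the inflammasome, spanned 97.7 to 368 CPM and was called, and Adam10, a protease that sheds Cx3cl1, spanned 47.9 to 183 CPM and was not.

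Of 13 NF-kappaB genes 12 were tested and 10 called for replicate number, against 54.2% of all genes. Nfkbia, the inhibitor that NF-kappaB itself induces, measured 592, 1303, 1982, 311 and 175 CPM in Rank1 and 800, 2453, 2151, 146 and 1346 CPM in Rank4. Rank4 replicate 5 reached the lowest library of replicates 2 and 3. The subunit genes Rel (248 to 322 CPM against 60.9 to 432 CPM) and Nfkb1 (177 to 287 CPM against 90.0 to 329 CPM) overlapped between replicates 2 and 3 and the other libraries. All 12 early-response genes were tested and all 12 were called for replicate number, beside the same 54.2% of all genes. Junb measured 2962 to 5375 CPM in replicates 2 and 3 and 328 to 1657 CPM elsewhere, whereas Jun, with 350 to 748 CPM against 202 to 1254 CPM, overlapped. Atf3, a stress-induced factor, measured 528 to 705 CPM against 48.8 to 1133 CPM, and its highest library was Rank4 replicate 5. By rank the early-response genes had a median log2 difference of -0.52, and -0.40 with the block, against -0.01 and -0.0038 over all genes. With the block 3 of the 12 had an unadjusted p under 0.05, beside 547 of all 5384 genes, and their lowest edgeR adjusted p was 0.120.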

How the data were processed

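The authors deposited raw UMI counts per gene and barcode for 10 libraries. Per the submitters' processing notes they used Cell Ranger 4.0.0 and the mm10 build, while the headers of the files name version 3.1.0 for replicates 1 to 3 (31053 genes listed) and 4.0.0 for replicates 4 and 5 (32285 genes). The 30406 genes in both lists held 99.4% to 99.9% of a library's UMIs. Cells with at least 500 genes and at most 15% mitochondrial UMIs were kept. Doublets (3915) were called by Scrublet at an expected rate of 0.06 in scanpy 1.11.5, with the median threshold of the others in 1 library where the caller had not worked. The kept cells numbered 1446 to 12602 per library. Clustering used 2000 variable genes, 30 components, 15 neighbours and Leiden resolution 1, with the 10 members left out, and classes were named from marker lists of 20 classes, so they may differ from the authors' own.

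Counts were summed per library and class (at least 20 cells) and tested with edgeR 4.0.16 (quasi-likelihood, TMM, R 4.3.3) with rank and header version as terms, filtering low counts, with Benjamini-Hochberg adjustment over all genes of a class at 0.05. DESeq2 1.42.0 was an alternative. The term for replicate number was added after the data were seen. Same-numbered libraries of the ranks deviated together (correlation of deviations 0.621 to 0.796 in microglia, 0.655 to 0.808 in astrocytes, 0.498 to 0.823 in endothelial cells and 0.691 to 0.873 in excitatory neurons), so replicate number was used as a block in the paired fit. The same-numbered library was the best match for 3 of 5 numbers in microglia and in astrocytes and for 4 of 5 in the other 2 classes, and the part of the division between replicates 2 and 3 and the rest in these correlations was not tested. Shares were taken at 1000 UMIs per cell and compared by exact permutation. Intervals are exact 95% ones and, like the limit of 3 counts, cover counting error only. Scripts were tested on simulated data.

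All 10 members are named, and of each pathway list the genes that passed by rank or otherwise those highest in microglia. Some results on genes outside the set are not reported here. Members, lists and markers were chosen with earlier results of these data known. Positions are from GENCODE M21 (99.7% of identifiers matched) and promoters from RefSeq on GRCm38.p6.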

Additional observations from a re-analysis of the deposited data

Results flagged for a closer look

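Il1b was also found in a cluster of 84 cells that stayed unnamed and entered no comparison. The cluster was led by Cd74, H2-Ab1, S100a8, Ccl5 and Lyz2, genes of antigen presentation and of blood myeloid and lymphoid cells, and held 136 Il1b UMIs in 20 of its cells (23.8%), a pooled level of 910 CPM. Its libraries held 2 to 34 such cells and 0 to 43 Il1b UMIs, with up to 27 UMIs in a single cell. The signal was singled out because it lies outside the classes compared and above the limit that a count of 0 allows.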

How the results depend on the processing

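The alternatives were another normalization (DESeq2 size factors), no filter on low counts, DESeq2's own test, no covariate, the replicate block, a stricter cell filter (at least 1000 genes), at least 50 cells per library, Leiden resolutions of 0.5 and 2, another pseudocount or thinning depth, adjustment over all classes together, and leaving out each library. Sets of replicates were added after the data were seen. The planned correlations across libraries were not run, since the libraries fell into separate clusters with fewer than 6 in the smaller.

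The rank result in microglia (0 genes called) gave 2 with the replicate block, 2 with no filter on low counts, 6 with replicates 1, 4 and 5 only and 18 with replicates 2 and 3 only. The tests of a member in a class (0 called) gave 1 with the replicate block (Cx3cl1 in astrocytes, -0.82, edgeR adjusted p = 0.0205, where the other alternatives gave 0.367 to 1.00) and 1 with replicates 2 and 3 only (Ccl3 in astrocytes). The replicate block changed no other call of a member by edgeR, while over all genes and the 9 classes fitted it called 167 gene tests against 0. For the header version 1833 genes were called, 2815 with no filter and 0 with at least 1000 genes per cell, where 0 members were called. Leaving out each library gave 638 to 2106 genes and 1 to 9 members for the header version. For replicate number 2919 genes were called, 1102 with at least 1000 genes per cell, and 666 genes and 3 members with replicates 1, 4 and 5 only. The 7 paired comparisons of classes called, of which 4 were lost with zeros at 3 counts (Ccl3, Tnf, Il1a and Cxcl10), fell to 1 with at least 10 cells of both classes, 1 with at least 1000 genes per cell, 0 with replicates 1, 4 and 5 only and 0 with replicates 2 and 3 only, and the last 2 sets are too small to pass. The lower count with fewer cells per class has fewer libraries, and for the other changes the cause was not tested.

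No rank difference of a member in microglia passed under any alternative, and several changed sign. In log2 units, with no covariate Ccl2 had -0.15 and Ccl12 0.0049, with the replicate block Ccl4 had -0.038, and at resolution 2 Ccl3 had -0.0082. With no filter Ccl2 had -0.0078, Ccl3 -0.066 and Cx3cr1 -0.0099. With at least 1000 genes per cell Cxcl10 had -0.27, Cx3cl1 0.068, Ccl3 -0.45, Ccl4 -0.51 and Tnf -0.29. With replicates 2 and 3 only Il1b had 0.63, Ccl2 -0.19 and Ccl12 0.17, and Cx3cl1 in excitatory neurons had 0.12. With replicates 1 to 3 only Il1b had 0.39, Cx3cr1 -0.13, Ccl2 -0.21 and Ccl12 0.013. With replicates 4 and 5 only Ccl3 had -0.42 and Ccl4 -0.080, and with replicates 1, 4 and 5 only Ccl3 had -0.37 and Ccl4 -0.39. Leaving out each library moved the rank difference from -0.43 to 0.23 for Ccl12, from -0.34 to 0.43 for Ccl2, from -0.36 to 0.69 for Ccl3, from -0.20 to 0.64 for Ccl4, from -0.39 to 0.28 for Cx3cl1, from -0.19 to 0.47 for Cx3cr1, from -1.05 to 0.15 for Il1a and from -0.94 to 0.39 for Il1b.

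For the header version, replicates 1, 4 and 5 only turned the sign of 7 members: Ccl2 0.15, Ccl3 2.35, Ccl4 2.19, Cxcl10 2.27, Cx3cr1 -0.13, Tnf 1.55 and Il1a 0.89. Leaving out each library moved Il1b from -0.80 to 0.63. Between microglia and macrophages Ccl2 had 1.10 with replicates 1, 4 and 5 only. Ccl12 had -0.33 and Il1b -0.074 with a pseudocount of 10 CPM, Ccl12 had -0.65 with at least 10 cells of both classes, and with replicates 2 and 3 only they had -1.83 and -1.5. With each count of 0 in macrophages set at 3 counts, added after the data were seen, Ccl12 had -1.71, Cx3cl1 -1.38 and Il1b -1.95. Then 6 comparisons were called, 3 of them with macrophages higher (Ccl2, Ccl12 and Il1b), which rest on zeros placed at the most they allow. Leaving out each library moved Ccl12 from -0.31 to 0.83. The rank difference in the share of microglia with Cx3cr1 was -7.67 percentage points at 2000 UMIs, -0.42 with no thinning and -4.80 with at least 1000 genes per cell, and that with Ccl3 ran from -15.3 to 5.27 over the left-out libraries. The cause of these changes was not tested. Depth limits Il1b, Cxcl10 and Ccl2 outside microglia, where libraries hold few UMIs of them, and the macrophages, with 112 cells in all.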
